A study of Mus musculus with 30 samples.

Results

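The collagen genes were taken as the 44 protein-coding genes of the GENCODE vM21 mouse annotation (of 21924 in all) whose symbol is Col, a number, the letter a and a number, and chromatin accessibility around them was measured by ATAC-seq. In ATAC-seq a transposase cuts open DNA, and the reads that fall into a stretch of the genome, here called a window, count how open that stretch is. A window was assigned to a collagen gene when the nearest start site of a protein-coding transcript lay within 50 kb and belonged to that gene. This gave 975 collagen windows of 305931 in the table of the 24 h experiment and 1052 of 369846 in the table of the 4 h experiment.

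The libraries came from mouse mesenchymal stem cells (MSC) isolated from the bone marrow of C57BL/6J mice and from NIH3T3, an established mouse embryonic fibroblast line for which the labels give the same strain. At 24 h, untreated MSC were set beside MSC given CK666, which inhibits the Arp2/3 complex and so the branching of actin filaments, and beside MSC given cytochalasin D (CytoD), which caps and breaks actin filaments. The study reported that CytoD stays out of the nucleus and raised filamentous actin inside it, whereas CK666 lowered filamentous actin there. At 4 h, untreated and CK666-treated cells were compared in MSC and in NIH3T3. Each of the 7 groups had 3 libraries, 21 in all, and none carried a genetic change. By the study's reporting summary, the MSC were 1 primary line made from the marrow of 6 mice, so the MSC libraries do not stand for separate animals. The question was how actin assembled in the nucleus bears on chromatin structure. The labels do not tie the libraries to separate cultures, so each p below measures the spread between libraries, which may be technical.

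Collagens are the main structural proteins of the extracellular matrix. Each molecule winds 3 alpha chains into a triple helix, and each chain has a gene of its own. Fibrillar collagens (types I, II, III, V, XI, XXIV and XXVII) build the fibrils of bone, skin, tendon and cartilage, type IV builds the sheets of basement membranes, and FACIT collagens (types IX, XII, XIV, XVI, XIX, XX and XXII) sit on the surface of fibrils. Marrow MSC can become bone, cartilage or fat cells, and type I collagen is the chief protein of bone matrix.

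At 24 h, untreated MSC libraries held 14122298 to 22352180 counts, those with CK666 19536094 to 21259528 and those with CytoD 14071301 to 19457534. At 4 h, MSC libraries held 29239381 to 30017192 untreated and 31634170 to 34979833 with CK666. NIH3T3 libraries held 24368857 to 27866363 untreated and 14496058 to 23146416 with CK666. Depth thus differed between treated and untreated libraries at 4 h, higher with CK666 in MSC and lower in NIH3T3. The part of depth in the drug results at either time was not tested. Collagen windows took 0.234% to 0.263% of a library's counts at 24 h and 0.243% to 0.314% at 4 h. Over the better filled windows, replicates of a group correlated at a Spearman coefficient of 0.869 to 0.954. The lowest of all were those of CytoD-treated MSC at 24 h, at 0.869 to 0.884. At 4 h the lowest were those of CK666-treated NIH3T3, at 0.876 to 0.915. As markers of the labelled cell type, the start sites of Pdgfra, Pdgfrb and Cxcl12 were open in MSC. Untreated MSC at 4 h held 514.8 to 564.6, 654.4 to 786.8 and 585.6 to 643.7 normalised counts at these. Untreated NIH3T3 held 333.4 to 380, 451.5 to 473.8 and 159.8 to 182.5, so Pdgfra and Pdgfrb were open there too. The start sites of Ly6a and Eng had no window. Of 5 hematopoietic markers listed, Ptprc, Spi1 and Itgam had no window at their start sites. Those of Cd68 and Csf1r were open in every group, with Csf1r at 33.8 to 52.7 normalised counts in untreated MSC, 17.8 to 28.7 with CK666 and 19.4 to 39.5 with CytoD at 24 h. Summed over the start windows found, the 2 hematopoietic genes held 76.7 to 129.6 in untreated MSC, 70.8 to 86.2 with CK666 and 57.1 to 100.5 with CytoD at 24 h, and 204.3 to 304.5 and 179.7 to 217.0 untreated and treated in MSC and 242.1 to 250.9 and 270.1 to 329.5 in NIH3T3 at 4 h. Cdh5 and Kdr, the 2 of 4 endothelial markers with a window, held 49.4 to 93.5 in all at 24 h and 39.95 to 120.4 at 4 h, and of the cartilage markers Sox9 was open in every group (598.1 or more) and Acan held 11.2 to 31.1 at 24 h. Of the 7 mesenchymal markers 3 had a start window at 24 h and 5 at 4 h. There Thy1 held 0 to 2.02 in MSC and 54.7 to 97.8 in NIH3T3. Lepr was likewise higher in NIH3T3, at 36.4 to 64.5 against 14.2 to 22.0 in MSC. In such bulk libraries, fewer cells with an open site and less opening in each cell cannot be told apart, and the part of other cells in the results below was not tested.

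Most of the collagen windows lay away from promoters. At 24 h, 636 of the 975 were in introns, 262 between genes and 41 over a start site of a collagen gene, and at 4 h the numbers were 673, 300 and 46 of 1052. Their median length was 673 bp at 24 h and 601.5 bp at 4 h. Counts are given after scaling each library by its effective size (TMM, trimmed mean of M values), and levels of different windows are compared only per kb.

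At their start sites, most collagen genes were less open than the typical gene. The median over the 41 start-site windows was 48.7 normalised counts per kb in untreated MSC at 24 h, against 147.8 over the 16724 start-site windows of all genes. At 4 h it was 74.8 against 261.3 in MSC and 79.4 against 204.1 in NIH3T3. A few collagen starts stood far above the rest. In untreated MSC at 24 h the main start of Col1a2, which makes the second chain of type I collagen, held 620.4 per kb, that of Col5a2 of the fibril-nucleating type V 605.9, and that of the FACIT gene Col12a1 525.1. Col1a1, the partner of Col1a2 in type I collagen, held 83.6 per kb, from 44.2, 45.2 and 50.1 normalised counts over a window of 556 bp. The 2 promoters that recur below are shown here in the RefSeq sequence of GRCm38.p6, 250 bases before to 50 after the start, because the first is the most open collagen start in each untreated group and the second serves a pair of genes. Capitals mark CCAAT boxes (CCAAT or its complement ATTGG) and GC boxes (GGGCGG or CCGCCC).
Col1a2 promoter, chr6:4505368-4505667, plus strand: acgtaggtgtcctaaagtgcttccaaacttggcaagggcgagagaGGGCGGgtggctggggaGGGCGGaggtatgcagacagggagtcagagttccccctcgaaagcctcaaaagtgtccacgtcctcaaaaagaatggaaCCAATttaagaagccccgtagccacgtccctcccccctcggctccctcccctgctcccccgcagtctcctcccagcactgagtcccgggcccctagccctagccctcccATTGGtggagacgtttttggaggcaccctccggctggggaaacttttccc
Col4a2 promoter, chr8:11312555-11312854, plus strand: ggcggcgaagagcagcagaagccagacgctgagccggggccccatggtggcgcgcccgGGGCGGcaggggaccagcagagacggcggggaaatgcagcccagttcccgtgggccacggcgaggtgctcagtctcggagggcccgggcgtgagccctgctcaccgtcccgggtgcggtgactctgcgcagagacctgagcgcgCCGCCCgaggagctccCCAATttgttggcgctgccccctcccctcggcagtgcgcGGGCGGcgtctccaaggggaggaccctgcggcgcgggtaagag

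The starts of Col4a1 and Col4a2, which make the chains found in every basement membrane and are transcribed away from each other, lie 21 bp apart on chromosome 8, so that a single window covers both. By the nearest-start rule, windows inside Col4a2 can fall to Col4a1, and windows inside Col4a1 to Col4a2. The counts and sums given below for either gene therefore mix windows of both. RefSeq promoters were found for 35 of the 44 genes, giving 38 sequences, of which 23 (60.5%) held a GC box, against 35.7% of all 32851 promoters. A CCAAT box was in 13 of the 38 (34.2%, all promoters 37.4%) and a TATA box (TATAAA, either strand) in 5 (13.2%, all promoters 13.6%).

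No collagen start-site window was called with either drug. A window was called higher or lower when edgeR's quasi-likelihood test gave a Benjamini-Hochberg adjusted p under 0.01 over all windows tested and the log2 fold change went beyond 1. By that rule 0 of the 41 start-site windows were called with CK666 at 24 h, where 11 had an unadjusted p under 0.05 and 0.773% of all start-site windows were called. The count was also 0 with CytoD (4 with an unadjusted p under 0.05, background 0.443%), for CK666 against CytoD (11, background 0.689%), for CK666 at 4 h in MSC (11 of 41 tested, background 0.270%) and in NIH3T3 (13 of 44 tested, background 1.51%), and DESeq2 called 0 in each of these 5 comparisons. Without the fold limit, 3 collagen starts passed the adjusted p with CK666 at 24 h, those of Col12a1, Col1a2 and Col6a3, all lower, beside 4.35% of all start-site windows. With CytoD 2 passed, Col1a2 and Col5a3, both lower (background 5.32%), and none did for CK666 against CytoD (background 9.86%). At 4 h, 1 passed in MSC, Col6a5, higher (background 5.41%), and 1 in NIH3T3, Col22a1, lower (background 7.69%).

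The main start-site window of Col1a2 held 276.6, 344.4 and 345 normalised counts in the untreated MSC libraries, 236, 192.3 and 265.3 with CK666 and 222.7, 249 and 235 with CytoD. All 6 treated libraries lay below the 3 untreated ones. The log2 fold change was -0.49 ± 0.12 (SE; edgeR adjusted p = 0.0016) with CK666 and -0.46 ± 0.12 (adjusted p = 0.0046) with CytoD. At 4 h it was -0.30 in MSC and -0.24 in NIH3T3, neither past the test. A second start-site window of Col1a2, with a mean of 19.2 normalised counts in untreated MSC at 24 h, was not called. Its log2 fold change was -9.3e-05 with CK666 and -0.16 with CytoD. Col12a1 held 270.1, 284.7 and 322.6 in the untreated libraries and 185.4, 179.2 and 193.6 with CK666, a log2 fold change of -0.66 ± 0.12 (adjusted p = 3.8e-05), and with CytoD the value was -0.38 (adjusted p = 0.035). Values for the start of Col1a1 were -0.32 with CK666 and -0.05 with CytoD, and the groups overlapped with CytoD. For Col3a1, the collagen that accompanies type I in skin and vessels, they were -0.43 and -0.18, and for the shared start of Col4a1 and Col4a2 -0.30 and -0.08, none past the test. Over all 41 starts the log2 fold changes ran from -1.29 to 0.98 with CK666 and from -0.68 to 0.60 with CytoD.

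With CK666 at 24 h, accessibility moved at a small share of the collagen windows, in both directions. Of 968 tested, 13 were called higher (1.34%, against 1.88% of all windows) and 12 lower (1.24%, against 1.06%), at 17 of the 44 genes, so that the shares were near the background. The median log2 fold change was -0.08 over the collagen windows and 0.02 over all windows tested. A window between genes, 25.6 kb downstream of the nearest annotated start of Col4a1, carried opposite changes with the 2 drugs. It lies at chr8:11184574-11185272 (mm10, with window starts counted from 0 as deposited) and held 36.4, 34.9 and 23.2 normalised counts in the untreated libraries, 129, 117 and 160.2 with CK666 and 12.7, 14.6 and 12.8 with CytoD, so that the 3 groups did not overlap. The log2 fold change was 2.11 with CK666 (edgeR adjusted p = 8.3e-12) and -1.22 with CytoD (adjusted p = 0.0051).

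The other gains with CK666 at 24 h were mostly at low untreated levels. In the intron of Col8a2, a chain of the short-chain network of the cornea, a window rose from 6.49, 2.56 and 8.94 to 37.5, 36.5 and 38.3 normalised counts (log2 fold change 2.64 ± 0.47). A window in an intron of Col25a1, a membrane-spanning collagen of neurons, rose from 7.79, 10.2 and 17.0 to 54.3, 59.2 and 62.9 (2.28 ± 0.31), and one in an intron of Col4a5 on the X chromosome, a basement membrane chain of the kidney filter, from 10.4, 5.11 and 8.04 to 37.5, 30.5 and 41.3 (2.23 ± 0.44). Col18a1, whose product is cleaved to endostatin, had a fuller window, at chr10:77116400-77117817, which rose from 83.1, 119 and 111 to 361, 343 and 349 (1.73). In each of these windows the lowest treated library lay above the highest untreated one.

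The 12 losses with CK666 were at 7 genes, the 13 gains at 11. Col28a1, a collagen described in peripheral nerve, held 3 of the 12, led by a window that fell from a mean of 83.2 ± 16.4 normalised counts (SD, n = 3) to 29, 30.5 and 19.7 (log2 fold change -1.63 ± 0.25), and Col6a6, a chain of the beaded filaments of type VI, held 3 more, led by one that fell from 90.9, 138 and 129 to 39.3, 41.8 and 42.3 (-1.55 ± 0.21). A window assigned to Col6a5 by its nearest start, though it lies in an intron of Col6a4, fell from 37.7, 27.3 and 53.6 to 14.98, 23.5 and 6.88 (-1.36 ± 0.36); DESeq2 did not call it, nor did the test without control replicate 3, CK666 replicate 1 or CK666 replicate 3, the values over all alternatives being -1.85 to -1.05. At Col1a2, 2 neighbouring windows in an intron, 25.4 and 26.1 kb after the start, fell, with log2 fold changes of -1.003 and -1.09. Without control replicate 3 the number of windows called lower was 7, and without CK666 replicate 2 the number called higher was 8.

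**Figure D1:**
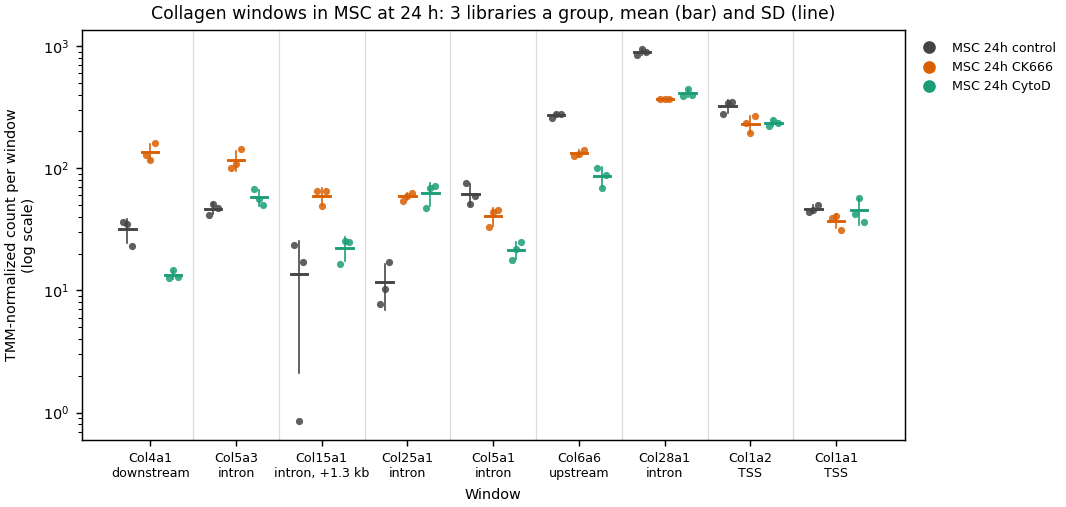
Normalised counts per library (log axis) in 7 collagen windows named for the 24 h experiment and in the main start windows of Col1a2 and Col1a1, for untreated, CK666-treated and CytoD-treated MSC. Points are libraries, bars group means and vertical lines the SD of 3 libraries. The window downstream of Col4a1 sits between 117 and 160.2 with CK666 and between 12.7 and 14.6 with CytoD, either side of the 23.2 to 36.4 of untreated cells.

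CytoD at 24 h lowered accessibility at more collagen windows than it raised. Of 968 tested, 27 were called lower (2.79%, against 1.40% of all windows) and 7 higher (0.723%, against 0.980%). Scaling by total counts shifted the median of all windows by 0.0761 on the log2 scale. It called 30 collagen windows, 28 of them among these 34. The lower windows belonged to 17 genes, and the median log2 fold change over all collagen windows was -0.03, against 0.04 over all windows. By class, 8 of 239 fibrillar windows tested were lower, 5 of 179 FACIT, 4 of 111 beaded filament and 3 of 164 basement membrane windows. So were 3 of 106 multiplexin windows and 2 of 45 short-chain network windows. Of 25 windows of Col7a1, the anchoring fibril collagen, and Col28a1, grouped with it, 2 were lower, both at Col28a1. A window 13.7 kb upstream of Col6a6 fell from 259.7, 277.9 and 276.1 normalised counts to 100.5, 69.2 and 87.8 (log2 fold change -1.66 ± 0.15), and the CK666 libraries, at 125, 131 and 141, lay between the other groups. In an intron of Col5a1, a chain of type V, the values fell from 75.3, 51.1 and 59.0 to 17.8, 21.9 and 24.7 (-1.49 ± 0.29), and in one of Col15a1, which links basement membranes to fibrils, from 20.8, 41.8 and 37.5 to 12.7, 6.07 and 7.31 (-1.96 ± 0.44), a call lost without control replicate 2. The untreated and CytoD libraries of these 3 windows did not overlap.

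The 7 gains with CytoD included the intron window of Col25a1, at 47.1, 69.2 and 71.3 normalised counts with CytoD (log2 fold change 2.38 ± 0.31), an intron window of Col15a1 that rose from 12.99, 20.5 and 23.2 to 50.9, 52.2 and 70.4 (1.59 ± 0.30), and 1 of Col4a4, a further basement membrane chain, that rose from 2.6, 13.6 and 10.7 to 39.5, 35.2 and 22.9 (1.75 ± 0.43). The last was lost without control replicate 1 or 3 and without CytoD replicate 1 or 2, with values of 1.36 to 2.12. At the Col25a1 window all 6 treated libraries lay above the 3 untreated ones, and the CK666 and CytoD libraries overlapped.

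Both drugs were compared with the same 3 untreated libraries, so their calls are given side by side and not as independent results. Those called higher with each were the windows of Col25a1 and the intron window of Col15a1 at chr4:47238976-47239577, and those called lower with each were at Col10a1, Col1a2, Col28a1 and Col6a6. A window called with one drug could lie close to the limits with the other, as did the Col28a1 window first named for CK666, at -0.99 with CytoD. The fullest of those lower with each, in an intron of Col28a1 at chr6:8172010-8172539, fell from 839, 947 and 890.1 normalised counts to 371, 365 and 369.5 with CK666 and 387, 446 and 399 with CytoD. The one assigned to Col10a1, the collagen of hypertrophic cartilage, lies in an intron of Nt5dc1, the gene inside which Col10a1 sits.

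Compared directly at 24 h, 22 of 968 collagen windows were higher with CK666 than with CytoD (2.27%, against 2.14% of all windows) and 6 were lower (0.620%, against 1.14%). Scaled by total counts instead, the split was 16 higher and 10 lower. Of 239 fibrillar windows 7 were higher, and of 106 multiplexin windows 5. At Col3a1, 3 windows upstream of the gene were higher, the largest difference being 87.1, 77.4 and 88.4 normalised counts with CK666 against 30.5, 37.6 and 22.9 with CytoD (log2 fold change 1.49). Of the windows with a mean of at least 20 normalised counts, the one downstream of Col4a1 differed most, at 3.33 ± 0.27, followed by those of Col4a5 (2.51 ± 0.46) and Col8a2 (2.36 ± 0.47) named above. Lower with CK666 were a second intron window of Col4a5 (10.6 ± 3.14 against 37.3 ± 1.78, SD, n = 3), an intron window of Col4a1 (12.7 ± 1.27 against 40.3 ± 6.44) and one 17.3 kb upstream of Col6a2 (14.1 ± 2.86 against 44.8 ± 3.72). The call at Col4a1 was lost without CytoD replicate 3, with values of -1.74 to -1.51 over the alternatives.

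The sequences of 6 windows that carry these results are shown here, each as its central 300 bases on the plus strand of GRCm38, the assembly that mm10 names: 2 windows that gained with CK666 at 24 h and are followed to 4 h, and 4 that lost accessibility with CytoD. Capitals mark matches on either strand to AP-1 (TGANTCA), TEAD (GGAATG or CATTCC) and RUNX (TGTGGT or ACCACA) motifs, which are short sequences that transcription factors of those families can bind.
Col4a1 downstream window, chr8:11184774-11185073: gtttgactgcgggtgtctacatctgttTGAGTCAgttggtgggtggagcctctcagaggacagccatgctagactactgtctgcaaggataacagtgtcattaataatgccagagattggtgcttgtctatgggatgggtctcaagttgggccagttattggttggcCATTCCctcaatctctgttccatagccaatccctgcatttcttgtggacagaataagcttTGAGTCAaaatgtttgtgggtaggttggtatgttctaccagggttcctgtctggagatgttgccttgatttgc
Col15a1 first intron window, chr4:47209639-47209938: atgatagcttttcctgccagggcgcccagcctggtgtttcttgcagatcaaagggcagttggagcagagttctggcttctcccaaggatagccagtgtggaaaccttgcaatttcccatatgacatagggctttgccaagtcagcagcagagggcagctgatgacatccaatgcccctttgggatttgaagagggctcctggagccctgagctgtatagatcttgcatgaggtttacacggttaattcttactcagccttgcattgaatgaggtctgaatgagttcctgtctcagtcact
Col6a6 upstream window, chr9:105841945-105842244: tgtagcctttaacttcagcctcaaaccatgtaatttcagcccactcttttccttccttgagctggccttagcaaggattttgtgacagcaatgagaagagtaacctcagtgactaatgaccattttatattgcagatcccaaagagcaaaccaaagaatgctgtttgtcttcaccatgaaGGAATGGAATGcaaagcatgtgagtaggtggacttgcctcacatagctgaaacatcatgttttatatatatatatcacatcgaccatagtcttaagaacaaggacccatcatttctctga
Col5a1 intron window, chr2:27917211-27917510: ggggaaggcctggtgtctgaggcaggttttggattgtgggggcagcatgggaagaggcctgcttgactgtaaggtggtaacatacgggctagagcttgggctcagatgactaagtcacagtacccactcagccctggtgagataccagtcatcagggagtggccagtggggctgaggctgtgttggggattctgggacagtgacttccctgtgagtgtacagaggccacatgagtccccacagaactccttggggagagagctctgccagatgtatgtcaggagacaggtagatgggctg
Col15a1 far intron window, chr4:47298152-47298451: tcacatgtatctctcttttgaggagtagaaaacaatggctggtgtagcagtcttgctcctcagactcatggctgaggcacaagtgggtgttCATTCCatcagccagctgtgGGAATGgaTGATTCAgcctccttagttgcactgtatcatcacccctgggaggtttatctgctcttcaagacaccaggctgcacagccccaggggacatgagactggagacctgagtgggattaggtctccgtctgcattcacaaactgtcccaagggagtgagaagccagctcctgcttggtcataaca
Col28a1 intron window, chr6:8172125-8172424: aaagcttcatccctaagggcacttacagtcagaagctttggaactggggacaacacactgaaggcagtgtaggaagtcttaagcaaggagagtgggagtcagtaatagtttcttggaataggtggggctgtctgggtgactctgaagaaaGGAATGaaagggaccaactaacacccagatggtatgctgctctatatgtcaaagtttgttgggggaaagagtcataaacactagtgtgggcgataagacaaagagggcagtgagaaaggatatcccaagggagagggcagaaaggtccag

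The window downstream of Col4a1 holds 2 AP-1 matches and 1 TEAD match, and the Col6a6 window 2 overlapping TEAD matches, whereas neither the first Col15a1 window nor the Col5a1 window holds any of the 3 motifs in these letters. Over all 975 collagen windows at 24 h, 21.4% held an AP-1 match in their central 300 bases and 22.6% a TEAD match, against 21.0% and 19.9% of all windows. Among the 27 lower with CytoD, 14 (51.9%) held an AP-1 match, beside 50.5% of all windows lower with CytoD, and 15 (55.6%) a TEAD match, beside 35.9%. Among the 13 higher with CK666, 3 held an AP-1 match (23.1%, all windows higher with CK666 23.5%). Among the 22 higher with CK666 than with CytoD, 12 did (54.5%, all such windows 39.3%). RUNX matches were in 25.3% of the collagen windows and in 7 of the 27 lower with CytoD (25.9%). The CArG box, which serum response factor binds, was in 1.33% of the collagen windows (all windows 1.55%) and in 0 of those called with either drug at 24 h. These are matches of letters and were not tested as binding.

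**Figure D2:**
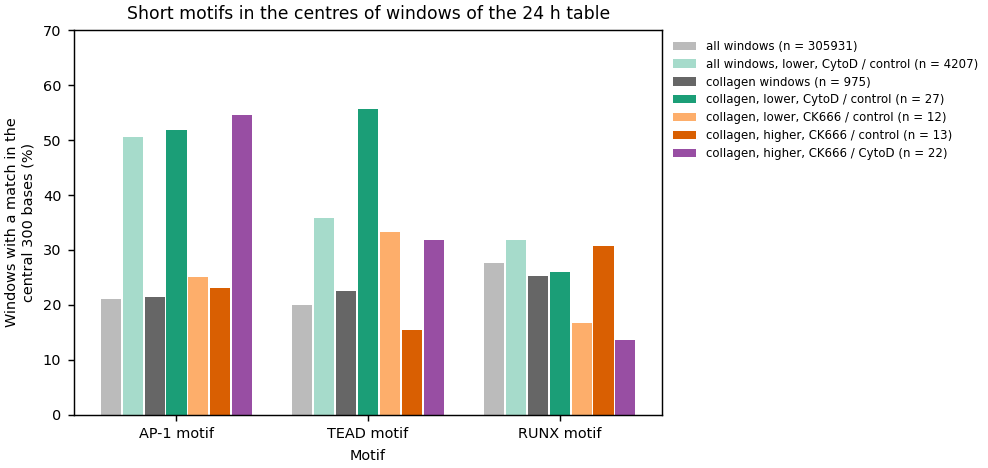
Share of windows (%, from 0) whose central 300 bases hold an AP-1, TEAD or RUNX match, for all windows of the 24 h table, all windows lower with CytoD, all collagen windows and 4 sets of collagen windows called in the drug comparisons. AP-1 stands at 51.9% of the collagen windows lower with CytoD and at 50.5% of all windows lower with CytoD.

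Summed over all windows of a gene, the changes were small and mostly downward at 24 h. A gene's sum was called at an edgeR adjusted p under 0.01 with no fold limit. With CK666, 10 of the 44 sums were lower (7.79% of all genes were) and 3 higher (5.79%), and with CytoD 16 were lower (background 9.50%) and 4 higher (7.41%). The median log2 fold change over the 44 genes was -0.06 with CK666 and -0.08 with CytoD, against 0.00 over all genes for each, and no sum went beyond a log2 fold change of 1. Col28a1 fell furthest with both drugs, from 1850.4, 1860.4 and 1811 normalised counts to 1084, 1013 and 983 with CK666 (log2 fold change -0.84 ± 0.05) and to 1175, 1106 and 1150.3 with CytoD (-0.69 ± 0.05). The sum of Col28a1 includes the full intron window at chr6:8172010-8172539 named above, 1 of its 21 windows. Without that window the sum was not tested. Col6a6 fell by 0.67 and 0.48, and Col25a1 rose by 0.80 and 0.96. Of type I collagen, the sum of Col1a2 fell by 0.23 with CK666 and by 0.42 with CytoD, from 3236.5, 3046 and 3265 to 2394, 2255 and 2470.5. That of Col1a1 was -0.06 and -0.10, neither past the test.

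Of the 11 fibrillar collagens, 5 sums were lower with CytoD and 1 was higher. Besides Col1a2, the sums of Col3a1 (-0.25), Col5a1 (-0.25), Col5a2 (-0.28) and Col5a3 (-0.37) fell with CytoD, and with CK666 the 4 values ran from -0.09 to 0.10 and none passed the test. Col11a2 rose by 0.64 with CytoD and stood at 0.29 with CK666, not past the test, and Col1a1, Col2a1, Col11a1, Col24a1 and Col27a1 were called with neither drug. In the direct comparison, Col3a1, Col5a2 and Col5a3 were higher with CK666 by 0.34, 0.33 and 0.36. In that comparison 9 sums were higher (background 10.6%) and 4 lower (9.48%). Of the basement membrane genes, only Col4a1 was called against control at 24 h, lower by 0.26 with CK666 and by 0.19 with CytoD, although its downstream window rose with CK666. Without control replicate 3 the number of sums higher with CytoD was 2. Among the called sums, 9 of 13 with CK666, 16 of 20 with CytoD and 9 of 13 in the direct comparison passed under every alternative processing and with each library left out.

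**Figure D3:**
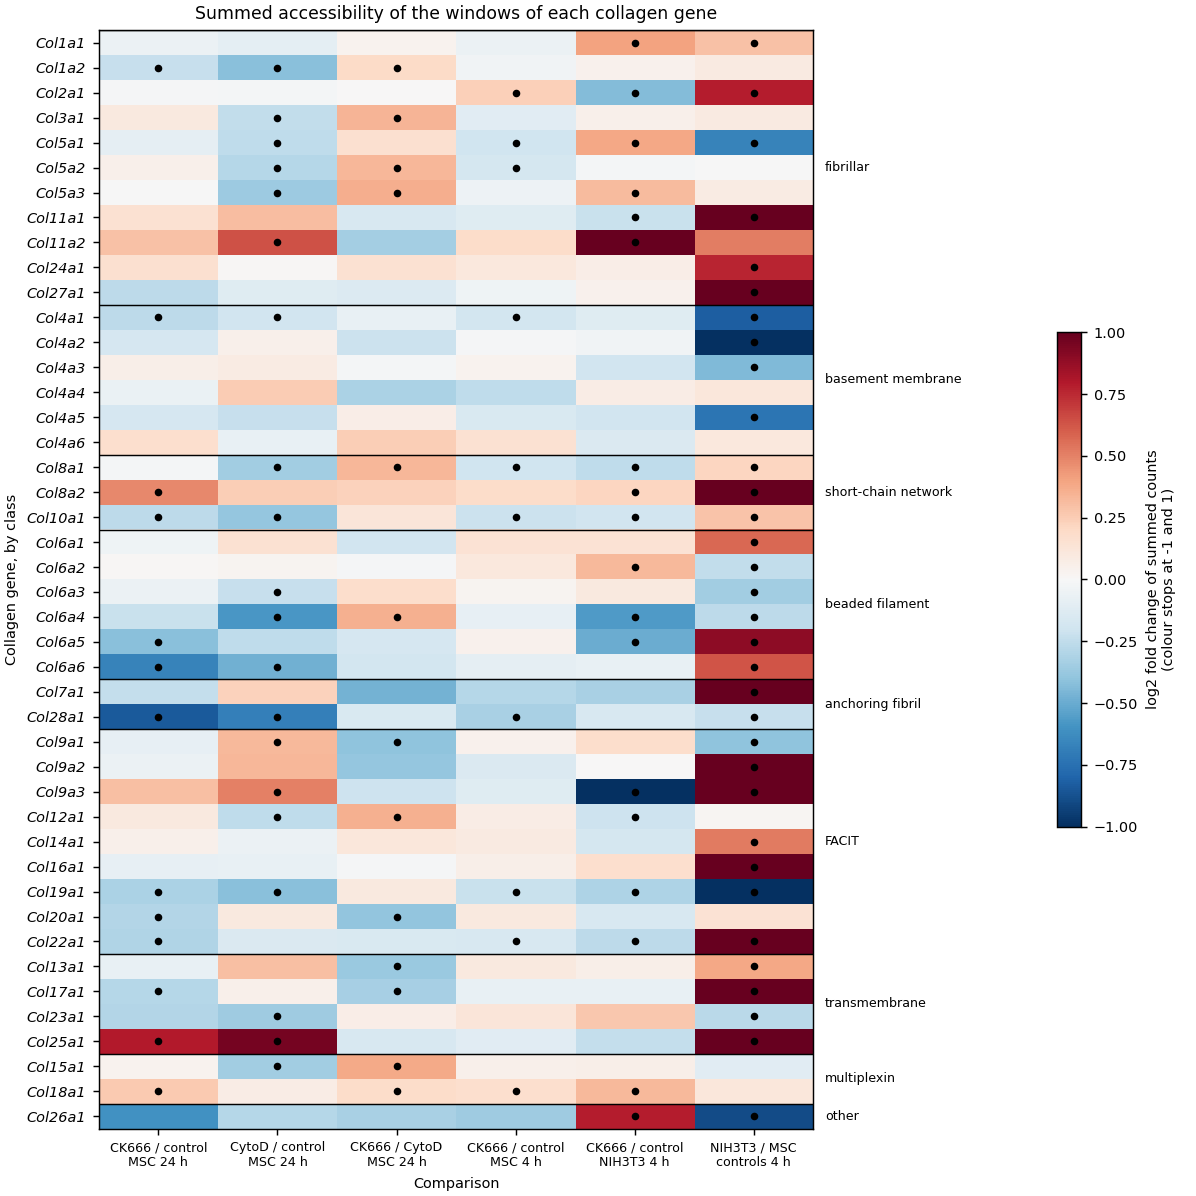
Log2 fold change of the summed windows of each of the 44 collagen genes, grouped by collagen class, in the 5 drug comparisons and in NIH3T3 against MSC, as colour that stops at -1 and 1. Filled points passed the adjusted p of 0.01. Col28a1 stands at -0.84 with CK666 and -0.69 with CytoD at 24 h, and in NIH3T3 against MSC the values run from -1.23 to 2.34.

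After 4 h of CK666, fewer collagen windows had changed in MSC. Of 894 tested, 3 were higher (0.336%, against 0.590% of all windows) and 6 lower (0.671%, against 0.427%). The median log2 fold change was -0.04 over the collagen windows and 0.00 over all. With the local median removed, 4 were higher and 5 lower. The 3 gains were intron windows of Col4a1, Col5a3 and Col15a1. The window of Col4a1, at chr8:11206425-11206947 and 3.9 kb after the nearest annotated start, rose from 17.3, 17.0 and 12.1 normalised counts to 77.4, 93.7 and 84.5 (log2 fold change 2.45 ± 0.26, edgeR adjusted p = 9.5e-12). It also rose in NIH3T3, from 21.6, 8.68 and 6.7 to 55.3, 74.7 and 84.1 (2.60 ± 0.32), with no overlap of the groups in either cell type. Its sequence is shown because it had the largest gain in both cell types at 4 h; the capitals mark a TEAD match, and its central 300 bases hold no AP-1 or RUNX match.
Col4a1 intron window, chr8:11206537-11206836: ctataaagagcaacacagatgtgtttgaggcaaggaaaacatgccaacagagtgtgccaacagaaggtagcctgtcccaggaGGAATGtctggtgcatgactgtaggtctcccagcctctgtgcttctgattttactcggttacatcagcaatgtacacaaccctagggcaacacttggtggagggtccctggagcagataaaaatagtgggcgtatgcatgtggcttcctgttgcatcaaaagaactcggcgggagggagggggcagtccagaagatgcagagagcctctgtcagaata

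The Col5a3 window rose in MSC at 4 h from 34.5, 34.0 and 38.4 normalised counts to 129, 85.3 and 102.5 (log2 fold change 1.55 ± 0.21), in NIH3T3 from 93.9, 59.0 and 73.7 to 206, 257 and 288 (1.77), and in MSC at 24 h from 41.6, 51.1 and 47.4 to 101, 108 and 142 (1.31). Col5a3 makes a chain of type V that some tissues use in place of others. The 3 comparisons use different untreated libraries, and in each of them the groups did not overlap. The first intron window of Col15a1 rose in MSC at 4 h from 9.14, 7.01 and 4.05 to 29.6, 26.2 and 18.9 (1.86) and at 24 h from 23.4, 0.852 and 17 to 65.5, 48.7 and 64.9 (2.20). These were the 2 collagen windows called in the same direction at both times in MSC, 22.2% of the 9 called at 4 h and 8% of the 25 called at 24 h. Over all windows the shares were 35.1% and 12.3%, and no collagen window was called in opposite directions. The window downstream of Col4a1 had a log2 fold change of 0.93 in MSC at 4 h, under the fold limit, and rose by 1.78 in NIH3T3. At 24 h the intron window of Col4a1 had a value of 0.74, not past the limits.

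The 6 losses at 4 h in MSC were weaker. A window upstream of Col19a1 fell from 24.4, 26.0 and 46.5 to 13.4, 13.5 and 11.7 (log2 fold change -1.33 ± 0.35), 1 in an intron of Col8a1 from 58.9, 30.0 and 34.4 to 18.2, 16.9 and 18.0 (-1.22 ± 0.31) and 1 assigned to Col4a1, in an intron of Col4a2, from 41.6, 42.0 and 70.8 to 21.0, 21.1 and 25.2 (-1.20 ± 0.28). Each lost its call under some alternatives: over all of them the values were -1.49 to -0.97 for Col19a1, -1.40 to -0.87 for Col8a1 and -1.33 to -0.90 for Col4a1. For Col8a1 these were DESeq2, the removal of the local median and leaving out control replicate 1 or any CK666 library, and for Col4a1 leaving out control replicate 3 or CK666 replicate 1 or 2. The Col19a1 call was lost with no filter on low counts, with the local median removed, without control replicate 2 or 3 and without any CK666 library. It was also lost with the replicate number as a block, alone or with the GC trend removed. Without control replicate 2 the number of windows called lower was 2, without CK666 replicate 2 it was 1, and DESeq2 called 2.

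Of the 44 sums at 4 h in MSC, 8 were lower (background 5.85%) and 2 higher (5.11%). The calls of Col28a1 (-0.33), Col4a1 (-0.18) and Col19a1 held under every alternative and the other 7 did not. Col4a1 went from 8937, 8887 and 8660 to 7692, 7868 and 7694 normalised counts, so that the untreated and treated libraries did not overlap. Without control replicate 1 or 3, 5 sums were called lower, without CK666 replicate 2, 4 were, and with any single library left out at most 1 was called higher.

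In NIH3T3, CK666 at 4 h moved more collagen windows, 18 higher (1.86% of 969 tested, against 1.87% of all windows) and 13 lower (1.34%, against 1.67%). The median log2 fold change was 0.17 over the collagen windows and 0.04 over all. The split depended on the processing: it was 22 and 8 when scaled by total counts, 11 and 19 with the trend in GC content removed, 12 and 21 with the local median removed, and 8 and 13 by DESeq2. Without control replicate 1, control replicate 3 or CK666 replicate 3 the number higher was 11, 9 and 11, and without CK666 replicate 2 it was 30. Scaling by total counts shifted the median of all windows by 0.102 on the log2 scale. Besides the Col4a1 and Col5a3 windows named above, a window of Col11a2, a cartilage fibril chain, rose from 15.1, 13.02 and 7.66 normalised counts to 55.3, 35.1 and 63.1 (log2 fold change 2.12 ± 0.35), and a window of Col22a1, a collagen of the muscle-tendon junction, from 46.4, 76.4 and 59.3 to 127, 284 and 213 (1.80 ± 0.20).

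The losses in NIH3T3 included fuller windows. Near the start of Col9a3, a FACIT chain of cartilage, a window fell from 853, 834 and 895 normalised counts to 293, 355 and 336 (log2 fold change -1.36 ± 0.13, edgeR adjusted p = 6.0e-13). A window in an intron of Col8a1 fell from 366, 359 and 422 to 126, 186 and 141 (-1.31 ± 0.15), and 1 upstream of Col5a2 from 96.1, 98.1 and 113 to 24.6, 50.5 and 35.0 (-1.43 ± 0.23). In none of these did the groups overlap. In MSC the same 3 windows held 59.3 to 125, 5.07 to 21.3 and 64.2 to 88.1 normalised counts over both groups. Among the 13 lower windows 7 held an AP-1 match (53.8%, all windows lower in NIH3T3 54.3%, 28.7% of all windows at 4 h).

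**Figure D4:**
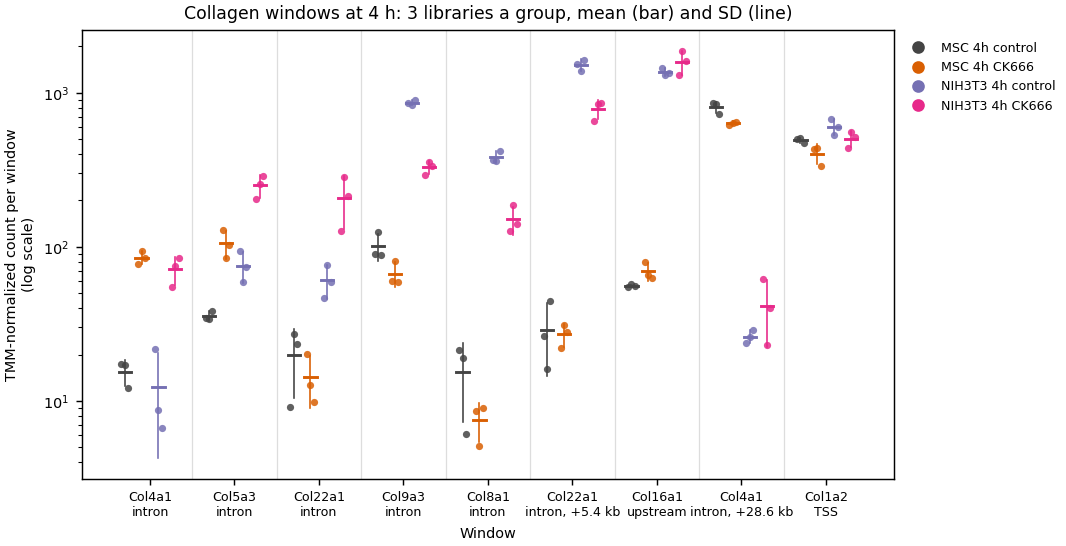
Normalised counts per library (log axis) in 8 collagen windows named at 4 h and in the main start window of Col1a2, in untreated and CK666-treated MSC and NIH3T3. Points are libraries, bars group means and vertical lines the SD of 3 libraries. The Col4a1 intron window goes from 12.1 to 17.3 up to 77.4 to 93.7 in MSC and from 6.7 to 21.6 up to 55.3 to 84.1 in NIH3T3.

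By sums, 8 collagen genes were higher with CK666 in NIH3T3 (background 12.7%) and 10 lower (16.4%), and scaled by total counts 11 and 5. Those that passed under every alternative were Col1a1 (0.40), Col5a1 (0.39), Col18a1 and Col6a2, higher, and Col9a3 (-1.02), Col6a4 (-0.57), Col6a5 (-0.50), Col2a1 (-0.43) and Col22a1, lower. The sum of Col9a3, in every comparison at 4 h, includes the full window near its start named above, 1 of its 9 windows. Without that window the sum was not tested. Col1a1 rose from 1746, 1747 and 1563 to 2151, 2282 and 2230 normalised counts, whereas in MSC its values were 1319, 1480.4 and 1331 untreated and 1371, 1313.5 and 1270.4 treated. Without control replicate 3 the calls were 5 higher and 5 lower, and without CK666 replicate 3, 5 were lower.

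The response to CK666 at 4 h was tested between the cell types as an interaction. Of 1047 collagen windows, 7 had a higher response in NIH3T3 (0.669%, against 0.498% of all windows) and 7 a lower one (0.669%, against 0.905%). Higher and lower were 10 and 6 when scaled by total counts, which shifted the median of all windows by 0.105, 5 and 8 with DESeq2 size factors, 3 and 7 with the GC trend removed and 4 and 9 with the local median removed. By sums, 4 genes had a higher response in NIH3T3 (background 6.66%) and 6 a lower one (10.1%), among them Col1a1 at 0.46 and Col9a3 at -0.89. The number of windows with a higher response rested on single libraries: it was 4, 3 and 4 without MSC control replicate 1, 2 and 3, 4 and 3 without MSC CK666 replicate 2 and 3, 4 and 3 without NIH3T3 control replicate 2 and 3, and 2 and 4 without NIH3T3 CK666 replicate 1 and 3.

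The cell types differed at far more collagen windows than either drug moved. Between untreated NIH3T3 and untreated MSC at 4 h, 189 of 1047 windows were higher in NIH3T3 (18.1%, against 16.2% of all windows) and 212 lower (20.2%, against 18.3%), or 38.3% together, at 43 of the 44 genes. The median log2 fold change was 0.08 over the collagen windows and 0.02 over all. Scaled by total counts, which shifted the median of all windows by 0.233 on the log2 scale, 241 were higher and 162 lower. At 29 of the higher and 22 of the lower windows the log2 fold change went beyond 3. The cell type, its culture and its library depth cannot be told apart in this comparison.

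The split between higher and lower windows varied between the collagen classes and between the genes within them. Of 162 basement membrane windows tested, 64 were lower in NIH3T3 and 9 higher, and of 251 FACIT windows 60 were higher and 25 lower. The windows assigned to Col4a1, some of which lie inside Col4a2, made up 45 of the 64 lower basement membrane windows, of 89 tested, and 3 higher ones. Of the 9 FACIT genes, 5 had a higher sum and 2, Col19a1 and Col9a1, a lower one. The lower Col4a1 window that differed most, in an intron at chr8:11249669-11251006, held 857, 839.9 and 731 normalised counts in MSC and 23.8, 26.1 and 28.7 in NIH3T3 (log2 fold change -4.94 ± 0.17). Col5a1 had 27 lower and 3 higher of 48, and Col6a3 had 11 lower of 28. Higher in NIH3T3 were 21 of 71 windows at Col22a1, 21 of 35 at Col27a1, a fibrillar collagen of cartilage, and 11 of 21 at Col16a1.

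The other windows with the largest differences had little signal in one cell type. An intron window of Col22a1 held 26.4, 16.02 and 44.5 normalised counts in MSC and 1537, 1379 and 1645 in NIH3T3 (log2 fold change 5.71 ± 0.16), the intron window of Col8a1 that fell with CK666 in NIH3T3 held 21.3, 19.0 and 6.07 in MSC and 366, 359 and 422 in NIH3T3 (4.62 ± 0.22), and one 10.2 kb upstream of Col16a1 held 54.8, 57.1 and 55.6 against 1452, 1300.4 and 1347 (4.61 ± 0.14). In the other direction, a window 24.3 kb upstream of Col6a5 held 180.7, 170.2 and 159.8 in MSC and 3.24, 8.68 and 7.66 in NIH3T3 (-4.64 ± 0.28), and one in an intron of Col12a1 held 132, 178 and 102 against 3.24, 3.47 and 13.4 (-4.33 ± 0.32). MSC and NIH3T3 libraries did not overlap in any of these.

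**Figure D5:**
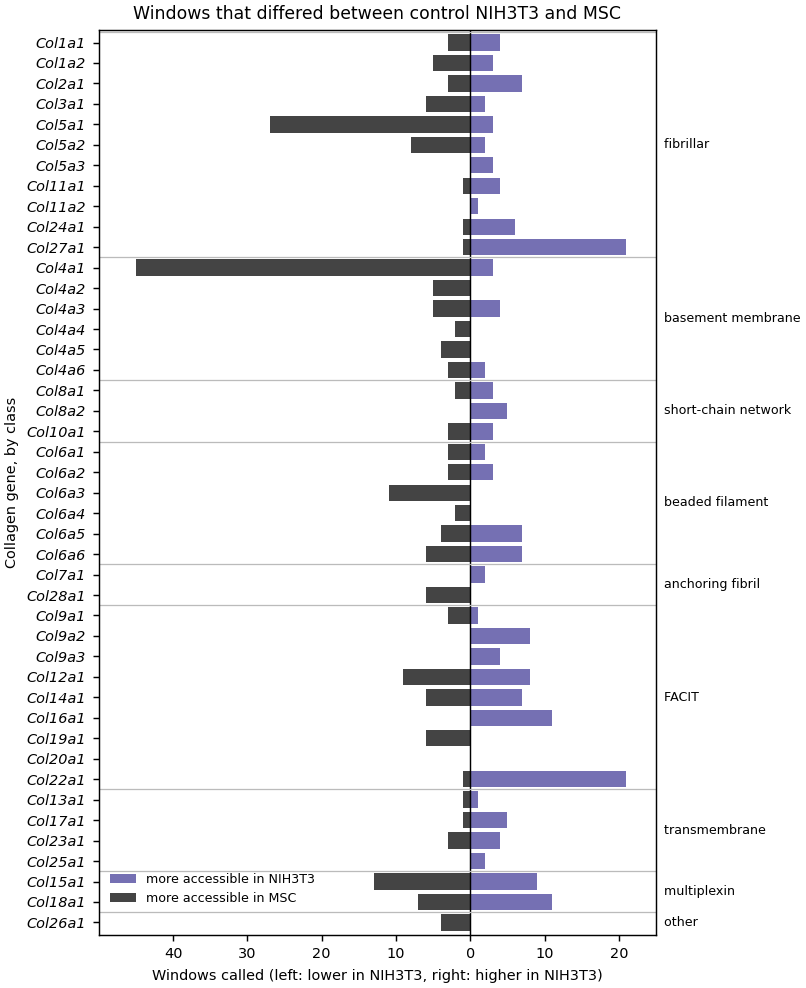
Collagen windows called higher and lower in untreated NIH3T3 than in untreated MSC at 4 h, as numbers of windows per gene (bars from 0). By nearest start, Col4a1 has 45 lower and 3 higher, and Col22a1 and Col27a1 have 21 higher and 1 lower each.

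At the start sites, 8 of 46 collagen windows were higher in NIH3T3 and 11 lower, as against 24.0% of all start-site windows called, and without the fold limit 12 were higher and 17 lower (background 55.0%). The start of Col2a1, the main collagen of cartilage, held 52.8, 52.1 and 49.6 normalised counts in MSC and 8.64, 15.6 and 4.79 in NIH3T3 (log2 fold change -2.37 ± 0.35), and that of Col15a1 59.9, 41.0 and 59.7 against 10.8, 3.47 and 18.2 (-2.32 ± 0.35). The start of Col11a1, a partner of Col2a1 in cartilage fibrils, went the other way, 280.2, 286 and 301 against 989, 787 and 895 (1.62 ± 0.11). The shared start of Col4a1 and Col4a2 held 605, 623 and 637 against 271, 292 and 299 (-1.11 ± 0.11), and its value was -0.88 when scaled by total counts and -0.89 with the GC trend removed, under the fold limit. The starts of Col1a1 (0.76), Col3a1 (0.84) and Col1a2 (0.29) lay under the fold limit.

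By sums, 20 collagen genes were higher in NIH3T3 (background 31.0%) and 13 lower (33.7%), and 30 of these 33 calls held under every alternative. The sums of Col9a3 (2.34), Col8a2 (2.08), Col16a1 (1.83), Col7a1 (1.71), which anchors skin to its basement membrane, and Col27a1 (1.57) were the highest, and those of Col19a1 (-1.23), Col4a2 (-1.22), Col26a1 (-0.90), Col4a1 (-0.83) and Col4a5 (-0.73) the lowest. The sum of Col9a3 again includes the full window near its start, and those of Col4a1 and Col4a2 mix windows of both genes. Of type I collagen, Col1a1 was higher by 0.29 and Col1a2 stood at 0.09, not past the test.

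The genes that process, crosslink, degrade or bind collagen were read the same way, by their summed windows, for a list of 47 of which 45 were tested. With CK666 at 24 h, 3 were higher (all genes 5.79%) and 6 lower (7.79%), and with CytoD 1 was higher (7.41%) and 9 lower (9.50%). Lox, which crosslinks collagen and elastin, fell by 0.67 with CK666 and by 0.45 with CytoD at 24 h, and by 0.38 with CK666 in MSC at 4 h. With CytoD, 6 of the 12 genes of extracellular processing and crosslinking tested were lower, beside the 9.50% of all genes. These were Pcolce, Pcolce2, Adamts2, Lox, Loxl1 and Loxl4, by 0.25 to 0.45 on the log2 scale. With CK666 at 24 h, 4 of the same 12 were lower (7.79% of all genes) and 1 higher (5.79%). In the other classes, 0 of 16 genes of intracellular processing, 0 of 4 fibril-associated proteoglycans, 1 of 6 degradation genes and 2 of 7 receptors were lower with CytoD. Itgb1, the shared chain of the collagen-binding integrins, fell in all 4 comparisons with control, by 0.25 and 0.15 with CK666 and CytoD at 24 h and by 0.30 and 0.46 at 4 h in MSC and NIH3T3. So did Mmp2, a gelatinase, by 0.26, 0.36, 0.17 and 0.50. Their classes did not fall as a whole: with CK666 at 4 h in MSC, 2 of 7 receptors were higher and 1 lower. Of 6 degradation genes 2 were higher and 1 lower there. With CK666 at 4 h, 4 genes were higher (all genes 5.11%) and 4 lower (5.85%) in MSC, and 4 higher (12.7%) and 13 lower (16.4%) in NIH3T3. Between the cell types 15 were higher in NIH3T3 (31.0%) and 19 lower (33.7%), Bmp1, the procollagen C-proteinase, lower by 1.84 and its relative Tll1 higher by 2.32.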

How the data were processed

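ATAC-seq libraries were prepared by the Omni-ATAC protocol, from 50000 cells for MSC. The authors processed the reads with PEPATAC, bowtie2 and MACS2 (versions not given in the sources used here) on mm10 and deposited raw counts of reads per consensus window and library in 2 tables. Consensus windows were the union of the peaks of the libraries. Of 30 libraries in the series 21 were used, and the 9 siRNA libraries were left out, as set by the choice of comparisons. The collagen genes, the lists of other genes and the tests were chosen with earlier results of these data known.

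Windows were assigned to the nearest protein-coding start of GENCODE vM21 (GRCm38) within 50 kb. Counts of all windows were tested in R 4.3.3 with edgeR 4.0.16 (filterByExpr, TMM, glmQLFit, glmQLFTest, Benjamini-Hochberg over all windows tested) and only collagen windows were read. The filter on low counts kept 968 of the 975 collagen windows at 24 h, and at 4 h 894 of 1052 in MSC, 969 in NIH3T3 and 1047 in the fit of both. The 9 libraries at 24 h shared 1 fit, drugs at 4 h were fitted within a cell type (6 libraries), and the comparison of cell types and the interaction used all 12. Windows counted as called with a log2 fold change beyond 1 and an adjusted p below 0.01, the limits of the study's methods, and a gene's summed windows at an adjusted p under 0.01 alone. Errors of fold changes are the log2 fold change over the square root of F. Tables were tested separately, and windows at both times were matched by an overlap of at least 1 bp.

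In each comparison other than the interaction, up to 3 called windows with the largest gain and up to 3 with the largest loss were named, 1 a gene and direction, provided the mean reached 20 normalised counts, together with the start-site windows of 17 collagen genes and the summed windows of all 44. Other windows in the text were chosen after their values were seen. They were those of Col18a1 and Col1a2 at 24 h, Col28a1 and Col10a1 lower with both drugs, Col3a1 upstream and the first intron window of Col15a1. The sequence of 1 further window is not reported here.

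Alternatives were DESeq2 1.42.0, its size factors, total counts, no filter, the replicate number as a block, removal of a loess trend on GC content (span 0.3) or of the local median within 5 Mb, starts within 5 kb, overlap with the gene body, only the groups compared, and each library left out. Same-numbered libraries of different groups correlated at -0.0718 to 0.0278 in their deviations from group means, so the numbers were not treated as pairs. The fits were tested on simulated data. Intervals and p-values at this depth of 14071301 to 34979833 counts a library cover the spread between 3 libraries a group. Python 3.11.15, pandas 2.3.3, numpy 2.4.6 and matplotlib 3.10.9 were used for annotation, summaries and plots.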

Additional observations from a re-analysis of the deposited data

Results flagged for a closer look

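The response to CK666 at 4 h was called different between the cell types, by edgeR's test of the interaction at an adjusted p under 0.01, at 14 collagen windows, with a difference beyond 1. Of these, 7 were higher in NIH3T3 (0.669% of those tested, all windows 0.498%) and 7 lower (0.669%, all windows 0.905%). With no fold limit, the summed windows of 10 of the 44 collagen genes were called, beside 16.8% of all genes. Values are the log2 fold change in NIH3T3 minus that in MSC.

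Among the windows, the response was higher in NIH3T3 by 3.09 at Col24a1, 2.70 at Col4a1, 2.43 at Col11a2, 2.27 at Col22a1, 2.15 at Col8a1, 1.38 at Col4a6 and 1.04 at Col28a1. The Col24a1 window held 1.74 to 3.24 normalised counts in untreated NIH3T3 and was under the filter on low counts within NIH3T3, and the Col11a2 window, at 5.07 to 19.0 in MSC, was under it within MSC, so each of these values rests on a cell type in which the response was not tested by itself. The window of Col8a1 was the one that fell in MSC (-1.22), with 0.96 in NIH3T3, and that of Col22a1 rose in NIH3T3 (1.80), with -0.49 in MSC. The window of Col4a1 had -1.35 in MSC and 1.38 in NIH3T3, neither of them past the limits within its cell type. The difference was -2.67 at Col10a1, -1.66 and -1.15 at 2 windows of Col2a1, -1.35 at Col5a2, -1.34 at Col6a5, -1.26 at Col12a1 and -1.03 at Col6a4. Of these, the window of Col10a1 fell in NIH3T3 (-1.80), with 0.84 in MSC, and that of Col5a2 fell in NIH3T3 (-1.43), with -0.10 in MSC.

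Among the sums, the difference was 1.15 for Col26a1, 0.59 for Col5a1, 0.46 for Col1a1 and 0.38 for Col5a3, and it was -0.89 for Col9a3, -0.67 for Col2a1, -0.53 for Col6a5, -0.48 for Col6a4, -0.27 for Col12a1 and -0.26 for Col14a1. The number of windows with a higher response in NIH3T3 was 2 by DESeq2, against 7 here.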

How the results depend on the processing

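Values of single named windows and sums kept their direction and side of the limits in 2446 of the alternatives run for them, lost their call in 147, gained one in 4 and changed sign in 7. The sign changed with total counts at the start of Col1a1, to 0.0224 with CytoD at 24 h and 0.0159 with CK666 in MSC at 4 h, and at the shared start of Col4a1 and Col4a2 in NIH3T3, to 0.0489. Leaving out a library moved these values between -0.275 and 0.0712 (Col1a1 with CytoD), -0.175 and 0.15 (Col1a1 with CK666 at 4 h in MSC) and -0.121 and 0.0277 (Col4a1 and Col4a2 in NIH3T3). None of these was called.

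Numbers of windows fell most with starts within 5 kb, where fewer windows are assigned: higher and lower were 3 and 1 with CK666 at 24 h, 1 and 4 with CytoD, 5 and 1 for CK666 against CytoD, 4 and 3 with CK666 in NIH3T3, 47 and 41 between the cell types and 0 and 1 for the interaction, and 3 were lower with CK666 at 4 h in MSC. DESeq2 called 2 lower at 4 h in MSC, 8 higher in NIH3T3, 2 higher for the interaction, 1 sum higher at 4 h in MSC and 1 window at both times. In NIH3T3, removing the GC trend left 11 higher, the GC trend with the replicate block, an alternative chosen after seeing the data, 11 higher and 20 lower, removing the local median 21 lower, and total counts 8 windows and 5 sums lower. Total counts also gave 10 windows lower with CK666 than with CytoD. Those higher for the interaction numbered 3 with the GC trend removed, 2 with the block as well, 4 with the local median removed and 4 with the replicate block, and the block moved no other count by over 1.5 times. With a fold limit of 1 in log2, sums called were 0 in each direction at 24 h and at 4 h in MSC, 1 and 1 in NIH3T3, and 10 and 2 between the cell types. The cause of these moves was not tested.

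With each library left out in turn, windows higher and lower ran from 8 to 13 and 7 to 15 with CK666 at 24 h, 5 to 9 and 24 to 28 with CytoD, 18 to 24 and 5 to 8 for CK666 against CytoD, 2 to 4 and 1 to 5 with CK666 at 4 h in MSC, 9 to 30 and 10 to 16 in NIH3T3, 172 to 194 and 186 to 211 between the cell types, and 2 to 8 and 5 to 10 for the interaction. Sums ran from 2 to 3 and 9 to 10, 2 to 5 and 14 to 17, 6 to 10 and 3 to 6, 0 to 1 and 4 to 7, 5 to 9 and 5 to 10, and 20 to 21 and 10 to 13 in the first 6 of these comparisons. The median collagen window held a mean of 23.1 counts at 24 h and 27.3 at 4 h and such counts limit the precision of single windows.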
